A study of Mus musculus with 36 samples.

Results

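Muscle stem cells of 18-month-old mice that had a free running wheel for 3 weeks, the O(+Ex) group, were compared with those of 18-month-old mice whose wheel was locked for the same 3 weeks, the O(-Ex) group. The libraries were chosen by these labels: 5 O(+Ex) and 7 O(-Ex), 12 of the 36 libraries in the series, each from 1 mouse and each with values for 11337 genes. All were C57BL6 males (the strain field of the labels reads C56BL/6) labelled WT for Ccnd1, and the hindlimb cells were sorted as CD31-, CD45-, Sca1-, VCAM+ and DAPI-. The 9 libraries of 3-month-old males sorted the same way, 3 Y(+Ex) with a free and 6 Y(-Ex) with a locked wheel, entered the same model and served for comparison. Neither the distance run nor the hour of tissue collection is stated in the labels.

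Muscle stem cells, also called satellite cells, lie between a muscle fibre and its basal lamina and are mostly quiescent in adult muscle. When activated they enter the cell cycle, pass through a myoblast stage marked by Myod1 and then Myog, and fuse with fibres or with each other. In aged muscle they are known to leave quiescence and repair injury less well, and voluntary wheel running is used as a physiological stimulus to them.

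Levels are given as RPKM, reads scaled to gene length and to the mapped reads of the library, so that both library size and gene length are divided out. A further step, not stated, also removed some variation from the values, as described with the processing. Low levels in particular need not be plain scaled reads. A change is the log2 difference of group means of log2 RPKM, with no pseudocount because the table holds no zero, and a gene was called where limma's moderated test gave a Benjamini-Hochberg adjusted p under 0.05 over all genes. The number of reads behind each value is unknown, so no counting interval can be given. In the old libraries, 10426 to 10555 genes exceeded 1 RPKM. The gene for the sort antigen VCAM had a mean of 187 RPKM in O(-Ex) and 176 RPKM in O(+Ex), and Pax7, the transcription factor that defines satellite cells, had means of 17.2 and 15.8 RPKM. Transcripts of CD31 and Sca1, which were sorted against, were present too, with mean Pecam1 (CD31) of 21.3 and 24.6 RPKM and mean Ly6a (Sca1) of 81.1 and 89.6 RPKM. No row was found for Ptprc, the gene for CD45, the other antigen sorted against. In such bulk RNA, fewer cells of a type and less RNA per cell cannot be told apart.

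With a free wheel, 838 genes (7.39% of 11337) changed in old mice, 464 of them higher (4.09%) and 374 lower (3.30%). Most changes were small: 576 of the 838 were under 1.5-fold, 48 rose and 28 fell more than 2-fold, and the median size was 0.45 on the log2 scale. The higher genes were in general less abundant, with a median level of 7.44 RPKM against 14.5 RPKM for the lower genes and 6.1 RPKM for all genes. In 447 genes (3.94%) the 5 free-wheel mice lay wholly outside the range of the 7 locked-wheel mice, 241 above it (2.13%) and 206 below it (1.82%). Of the 838 called genes 358 had such separate groups, and a call and a separation rest on the same values. The count of called genes rested in part on single mice, falling to 351 without mouse 3 of the free-wheel group, written O(+Ex) 3, and to 468 without O(+Ex) 2, 471 without O(-Ex) 4 and 556 without O(-Ex) 5. It was 398 when the level of endothelial markers, described below with the vascular genes, was added to the model, an analysis chosen after the data were seen.

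**Figure D1:**
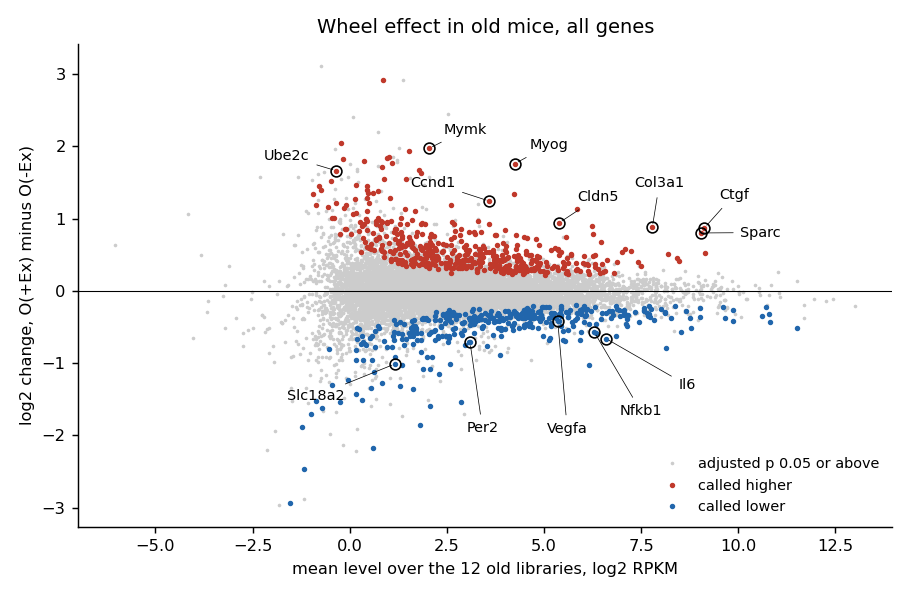
Each point is a gene, with its mean level over the 12 old libraries in log2 RPKM on the x axis and its log2 change, O(+Ex) minus O(-Ex), on the y axis. Red points are the 464 genes called higher and blue points the 374 called lower; the largest changes lie at low levels, while Col3a1, Ctgf and Sparc stand out above 0.5 among the abundant genes.

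A set of extracellular matrix genes rose together. Of 39 measured genes of collagens, laminins, proteoglycans and glycoproteins, 12 rose and 0 fell (30.8% called either way, against 7.39% of all genes). Of the 12, 9 had no overlap between the groups, as had 358 of all 838 called genes. The list's median change was 0.28 against -0.01 for all genes. Col3a1, a fibrillar collagen of reticular fibres (mm10 chromosome 1, 45311538 to 45349706, plus strand), had a lowest, median and highest level of 142, 146 and 214 RPKM in the locked-wheel mice. In the 5 free-wheel mice it was at 269, 272, 346, 331 and 283 RPKM. All 5 thus lay above every locked-wheel mouse, and the change was 0.88 ± 0.10 (SE, limma adjusted p = 6.3e-05), or 1.85-fold.

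Sparc, a collagen-binding glycoprotein secreted by many stem and stromal cells, was at 357, 395 and 450 RPKM (lowest, median, highest) with a locked wheel and at 635, 615, 829, 723 and 687 RPKM with a free one. It rose 1.74-fold (0.80 ± 0.09, limma adjusted p = 6.3e-05), again with no overlap. Its relative Sparcl1 rose by 0.67. The basement membrane collagens Col4a1 and Col4a2, which together form the main network of the basal lamina, rose by 0.40 and 0.57, and Col15a1 and Col18a1, which lie at the same boundary, rose by 0.57 and 0.41. Fbn1, the microfibril protein, rose by 0.54, Col6a1 by 0.37 and Col5a2, which helps to set fibril diameter, by 0.29. Collagen I did not follow at this threshold: Col1a1 had means of 22 and 27.3 RPKM (log2 change 0.34, adjusted p = 0.45) and Col1a2 had 13.6 and 13.1 RPKM (-0.07, adjusted p = 0.90). Laminin genes did not pass either, with changes from -0.13 for Lama4 to 0.21 for Lamb1.

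Among enzymes that process matrix, Pcolce, an enhancer of procollagen processing, rose from a mean of 17.5 to 23.5 RPKM (0.43 ± 0.09, limma adjusted p = 0.006). Lox, which crosslinks collagen and elastin, went the other way. It was at 54.3, 63.6 and 65.8 RPKM with a locked wheel and at 52.3, 45.1, 39.3, 41.8 and 39.0 RPKM with a free one, so the groups did not overlap (-0.49 ± 0.12, limma adjusted p = 0.015). Ctgf, a matricellular protein and a target of both TGF-beta and YAP, rose from 418 to 759 RPKM, 1.83-fold (limma adjusted p = 0.0015), and its relative Cyr61 rose from 477 to 693 RPKM with overlapping groups (adjusted p = 0.027). Without O(+Ex) 3, 7 matrix genes were called in place of 12, and with the endothelial marker level in the model, 8.

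A few late genes of the myogenic programme rose. Of 23 measured members, 3 rose and 0 fell (13% called either way, against 7.39% of all genes), with a median change of 0.15. Besides Myog, these were Mymk and Chrna1. Mymk, the membrane protein myomaker needed for myoblast fusion (mm10 chromosome 2, 27061636 to 27072179, minus strand), was at 0.426, 1.48 and 4.10 RPKM (lowest, median, highest) with a locked wheel and at 6.13, 3.78, 5.48, 7.46 and 12.3 RPKM with a free one. The ranges overlapped at the lowest free-wheel mouse, and the rise of 1.97 ± 0.50 (limma adjusted p = 0.024) was lost in 1 of the 12 omissions of a single mouse. Chrna1, the muscle acetylcholine receptor alpha subunit, was at 13.2 to 20.1 RPKM in locked-wheel mice and at 21.7 to 25.7 RPKM in free-wheel mice, without overlap (0.58 ± 0.13, adjusted p = 0.012).

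Actc1, an actin of embryonic and regenerating muscle, had a change of 2.44 that did not pass (adjusted p = 0.15).

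The early factors did not pass the test. Mean Myf5 was 186 RPKM with a locked and 206 RPKM with a free wheel (adjusted p = 0.56), and mean Myod1 was 872 and 719 RPKM (adjusted p = 0.17). Pax7 had a change of -0.13 ± 0.11 (adjusted p = 0.53). Of 28 genes of satellite cell identity, Sdc4 alone was called (3.57%, against 7.39% of all genes). This abundant heparan sulfate proteoglycan had a mean of 1948 RPKM with a locked and 1554 RPKM with a free wheel. Its call (limma adjusted p = 0.047) was lost in 9 of the 12 omissions. None of the 27 measured Notch pathway genes, which include the receptors and targets that hold satellite cells quiescent, was called, and their median change was -0.01. Heyl, a Notch target, came nearest, at -0.33 (adjusted p = 0.059).

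Mitotic genes rose from very low levels. Of 17 measured members, 8 rose and 0 fell (47.1% called either way, against 7.39% of all genes). Of the 17 changes 16 were positive, and the median change was 0.88. Summed over the 17 genes, the level was 16.4 to 21.9 RPKM in locked-wheel mice and 26.8 to 34.4 RPKM in free-wheel mice. A further 23 of the 40 listed genes had no row in the table, and 14 of the 17 had a mean under 1 RPKM with a locked wheel. Without O(+Ex) 3 the count of called members was 4, and without O(-Ex) 5 it was 5. With a pseudocount of 1 RPKM, 6 were called and the median change was 0.33.

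Ube2c, the ubiquitin-conjugating enzyme of the anaphase-promoting complex, was at 0.279, 0.352 and 0.68 RPKM with a locked wheel and at 1.00, 1.24, 1.77, 1.07 and 1.42 RPKM with a free one. Kif11, the kinesin that pushes spindle poles apart, was at 0.238, 0.379 and 0.714 RPKM and at 1.01, 1.22, 1.06, 1.14 and 1.20 RPKM. In both genes every free-wheel mouse was above every locked-wheel mouse, and the changes were 1.66 ± 0.25 and 1.52 ± 0.23 (limma adjusted p = 0.0014 for each). Ccnb2, a mitotic cyclin, rose by 0.95 ± 0.17 (adjusted p = 0.0029). Top2a, Pbk, Cdca3, Racgap1 and Tpx2, named after their values were seen, rose by 1.22, 1.40, 1.40, 1.45 and 1.01. The proliferation marker Mki67 had a change of 0.88 (adjusted p = 0.067).

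Many promoters of mitotic genes carry a cell cycle homology region, whose core letters are TTTGAA. These letters, on either strand, stood within the 250 bases before the RefSeq start (GRCm38.p6) in 4 of the 6 called members with a promoter sequence at hand, Ube2c, Kif11, Ccnb2 and Top2a, against 16% of 32851 promoters. A gene counted here if any of its promoters held the letters, while the 16% is a share of single promoters. The letters were not found in Cdca3 and Racgap1, and Pbk and Tpx2 were not searched. The 3 windows that do not overlap an annotated exon are shown, 5′ to 3′ on the gene's strand, with the match in capitals, because they carry the shared letters of genes that rose together; a match is a description of letters and not a measured site. In Kif11 the match starts 19 bases before the gene's start (chr19:37376132-37376381, plus strand), in Top2a 179 and 23 bases before it (chr11:99024190-99024439, minus strand) and in Ccnb2 167 bases before it (chr9:70421555-70421804, minus strand).
Kif11: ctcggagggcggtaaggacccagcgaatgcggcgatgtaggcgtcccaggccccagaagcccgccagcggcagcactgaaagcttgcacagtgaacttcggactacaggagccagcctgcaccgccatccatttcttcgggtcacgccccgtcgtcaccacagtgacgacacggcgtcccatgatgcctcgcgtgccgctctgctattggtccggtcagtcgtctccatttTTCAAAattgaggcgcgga
Top2a: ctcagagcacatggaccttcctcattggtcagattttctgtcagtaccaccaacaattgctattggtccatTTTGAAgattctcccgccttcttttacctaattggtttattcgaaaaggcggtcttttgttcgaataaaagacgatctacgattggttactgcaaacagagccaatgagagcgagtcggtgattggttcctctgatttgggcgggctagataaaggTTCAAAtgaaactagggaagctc
Ccnb2: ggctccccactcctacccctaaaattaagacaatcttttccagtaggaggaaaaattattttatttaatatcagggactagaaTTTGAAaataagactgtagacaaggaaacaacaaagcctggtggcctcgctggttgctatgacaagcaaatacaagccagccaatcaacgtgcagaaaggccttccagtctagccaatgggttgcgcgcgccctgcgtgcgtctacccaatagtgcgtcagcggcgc

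Of 24 genes of G1 cyclins, kinases, inhibitors and the Rb and E2F families, 2 rose and 0 fell (8.33% called either way, near the 7.39% of all genes). These were Ccnd1 and its kinase partner Cdk4. Ccnd1, a D-type cyclin, had means of 7.72 and 18.3 RPKM with no overlap (1.24 ± 0.13, limma adjusted p = 4e-05). Cdk4 had means of 38.0 and 46.2 RPKM, overlapping groups and an adjusted p of 0.045 that was lost in 11 of the 12 omissions. Ccnd2 (-0.32 ± 0.13, adjusted p = 0.12), Ccnd3 (0.10 ± 0.07, adjusted p = 0.44) and Cdk6 (0.29 ± 0.15, adjusted p = 0.23) did not pass. Of 29 DNA replication genes, 2 rose and 1 fell (10.3% called either way), with a median of 0.12. The one that fell, Mcm4 of the replicative helicase, was at 19.3, 22.8 and 30.2 RPKM with a locked wheel and at 16.5, 16.5, 13.2, 16.7 and 18.9 RPKM with a free one (-0.52 ± 0.10, limma adjusted p = 0.004).

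**Figure D2:**
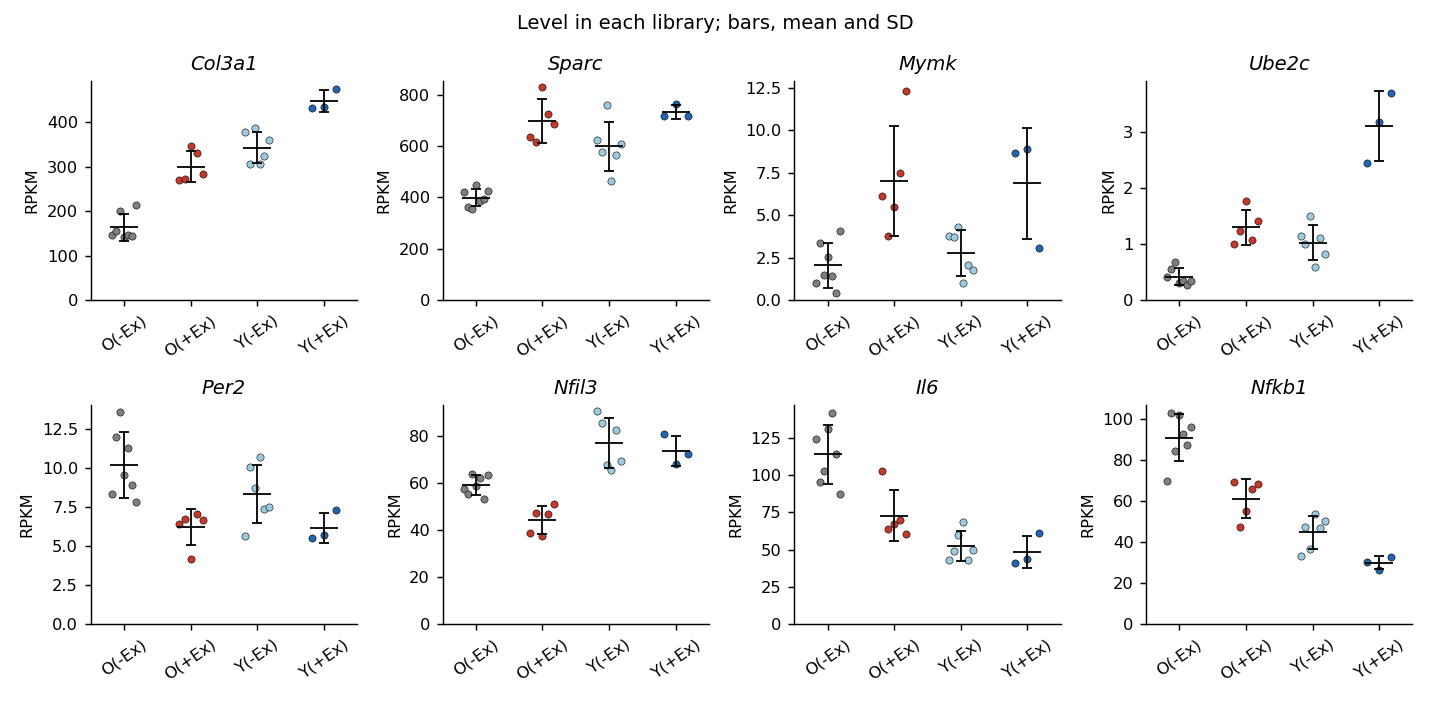
The level of 8 genes in RPKM (y axis, from 0) is shown for each library of the 4 wheel groups (x axis); points are mice and bars the mean and SD. Col3a1, Sparc, Ube2c, Per2, Nfil3 and Nfkb1 have separate ranges in O(-Ex) and O(+Ex), and the O(+Ex) mice of Col3a1 lie between the O(-Ex) and the Y(-Ex) mice in mean level.

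Several secreted growth factors and vascular genes rose. Of 30 growth and neurotrophic factors, 4 rose and 1 fell (16.7% called either way, against 7.39% of all genes), with a median change of 0.14. Pdgfb, a ligand that recruits pericytes and acts on mesenchymal cells (mm10 chromosome 15, 79995874 to 80014977, minus strand), was at 0.40, 0.896 and 1.67 RPKM with a locked wheel and at 3.80, 3.72, 3.58, 2.41 and 2.80 RPKM with a free one. It rose 3.57-fold (1.83 ± 0.31, limma adjusted p = 0.0025) with no overlap. Pdgfa rose from 13.2 to 19.6 RPKM, also without overlap (adjusted p = 0.0073). Igfbp7, a secreted insulin-like growth factor binding protein, rose from 109 to 156 RPKM (adjusted p = 0.0031) and Angpt2, a ligand of the endothelial receptor Tek, rose by 0.76. Pgf, placental growth factor of the VEGF family, was not on that list. It was at 3.02, 4.75 and 5.89 RPKM with a locked wheel and at 9.48, 6.19, 8.13, 10.6 and 8.67 RPKM with a free one (0.95 ± 0.18, limma adjusted p = 0.004).

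Vegfa itself fell. It was at 40.6, 45.4 and 51.1 RPKM in locked-wheel mice and at 33.6, 36.5, 31.3, 33.2 and 36.2 RPKM in free-wheel mice, 1.34-fold lower without overlap (-0.42 ± 0.07, limma adjusted p = 0.0025). Among 31 glycolysis and hypoxia genes, which include Vegfa, 4 fell and 0 rose (12.9% called either way, against 7.39% of all genes). Besides Vegfa these were Egln1, an oxygen-sensing prolyl hydroxylase (-0.34), Ldhb, a lactate dehydrogenase subunit (-0.23), and Slc16a3, a lactate exporter (-0.50). Hif1a had a change of -0.13 (adjusted p = 0.33) and the list's median was -0.03. The count was 2 without O(+Ex) 2, 3, 4 or 5 in turn.

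Some markers of endothelial cells rose with the wheel in old mice. The 16 markers summed to 243 to 336 RPKM (median 301) in O(-Ex) and 300 to 416 RPKM (median 384) in O(+Ex), and to 190 to 303 and 219 to 253 RPKM in the young locked-wheel and free-wheel mice. Of the 16, 3 were called higher and 0 lower (18.8% called either way, against 7.39% of all genes). These were Cldn5, a tight junction protein, the VEGF receptor Kdr and Egfl7. Cldn5 was at 19.8, 31.3 and 43.0 RPKM with a locked wheel and at 64.8, 62.4, 53.9, 59.9 and 46.4 RPKM with a free one, a rise of 0.94 ± 0.20 (limma adjusted p = 0.01) with no overlap. Kdr overlapped between the groups and lost its call in 8 of the 12 omissions. The defining markers were not called, with changes of 0.23 for Pecam1 (adjusted p = 0.32), 0.23 for Cdh5 (adjusted p = 0.52), 0.00 for Tie1 and -0.04 for Tek, and Erg was the 1 member with a mean under 1 RPKM in O(+Ex). Without O(-Ex) 4, O(+Ex) 2 or O(+Ex) 3 in turn, 1 of the 16 was called.

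With the mean log2 level of these markers as a covariate, 354 of the 838 genes remained called and all 838 kept their direction. Col3a1, Sparc, Pdgfb, Pgf, Vegfa, Ube2c and Kif11 were among those that remained called. Of the 114 called genes named by rule, 54 were not, among them Kdr, Egfl7, Il6, Stat3, Tnf, Ccl11, Per2, Chrna1, Lox, Cyr61, Id2 and Id3. Kdr and Egfl7 are themselves among the markers averaged in the covariate, so their loss was in part built in. The part of endothelial RNA in the other differences was not tested. The 18 haematopoietic markers summed to 98.5 to 318 RPKM in O(-Ex) and 167 to 375 RPKM in O(+Ex), none was called and their median change was 0.41. Of 16 smooth muscle and pericyte markers 1 rose, Acta2, and 3 fell, Pdgfrb, Abcc9 and Myh11 (25% called either way, against 7.39% of all genes). The count lower was 0 without O(-Ex) 5, O(+Ex) 2 or O(+Ex) 3, 1 without O(-Ex) 1, 2, 3 or 4 or O(+Ex) 4, and 0 with either marker covariate. Myh11 lost its call in 10 and Abcc9 in 7 of the 12 omissions. Of 17 markers of fibro-adipogenic progenitors (11.8% called either way) Islr rose (0.72 ± 0.11, limma adjusted p = 0.0014) and Lox fell. Mean Pdgfra, which defines these cells, was at 0.637 RPKM in O(-Ex) and 0.823 RPKM in O(+Ex). Mature myofibre markers had 0 of 17 called and a median of -0.29.

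**Figure D3:**
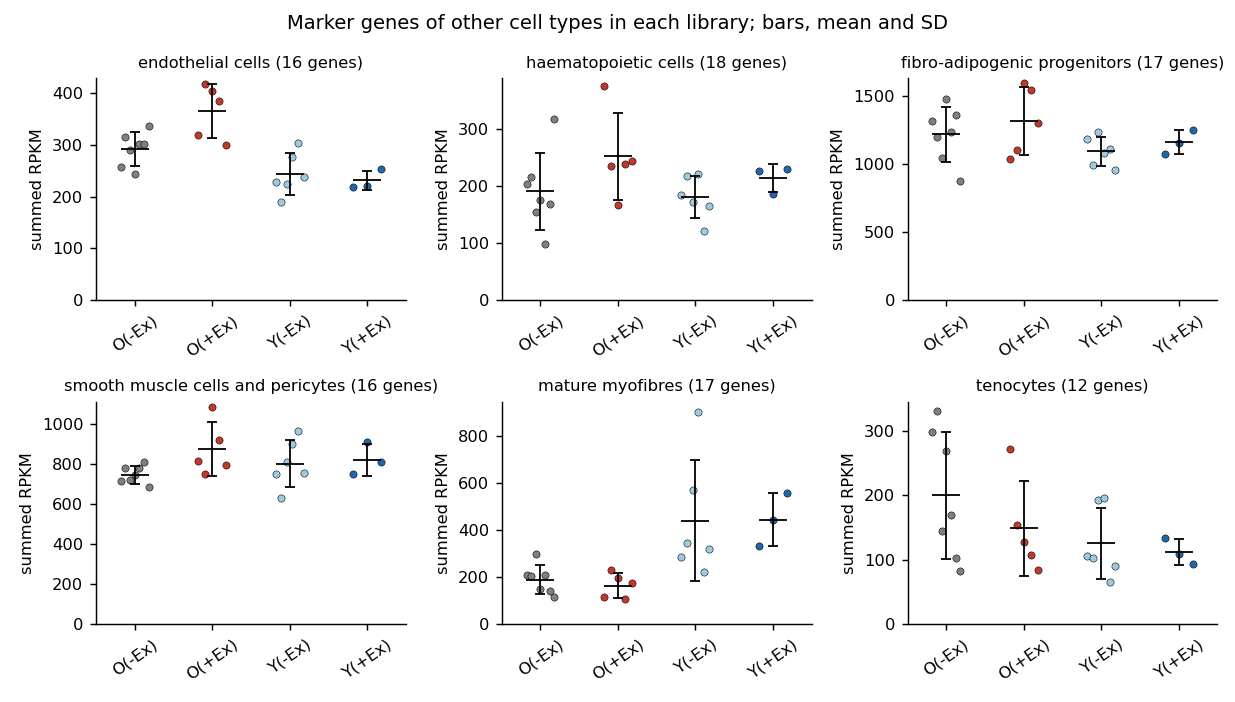
Summed RPKM (y axis, from 0) of the marker genes of 6 other cell types is shown for each library of the 4 groups (x axis), with the mean and SD as bars. Endothelial sums reach 416 RPKM in O(+Ex) against at most 336 RPKM in O(-Ex), with overlapping ranges; myofibre sums are highest in the young mice.

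Several core clock genes fell with the free wheel. Of 22 measured members, 7 fell and 1 rose (36.4% called either way, against 7.39% of all genes). Of the 22 changes 20 were negative, and the median was -0.27 against -0.01 for all genes. Of the 7 that fell, 5 had no overlap, as had 358 of all 838 called genes. Per2, a repressor of the Clock and Arntl complex (mm10 chromosome 1, 91415982 to 91459324, minus strand), was at 7.80, 9.58 and 13.6 RPKM with a locked wheel and at 6.42, 6.77, 4.20, 7.03 and 6.65 RPKM with a free one (-0.71 ± 0.16, limma adjusted p = 0.013). Cry2, its partner repressor, was at 15.1, 17.1 and 19.8 RPKM and at 12.5, 10.6, 9.35, 11.3 and 12.4 RPKM (-0.63 ± 0.12, adjusted p = 0.0049). Both fell without overlap between the groups.

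Csnk1d, the kinase that marks PER proteins for degradation, was at 138, 151 and 182 RPKM with a locked wheel and at 119, 112, 108, 114 and 108 RPKM with a free one (-0.46 ± 0.08, limma adjusted p = 0.0025). Nfil3, a repressor that binds D-box elements, was at 53.3, 58.8 and 63.8 RPKM and at 38.6, 47.2, 37.5, 47.0 and 51.2 RPKM (-0.43 ± 0.09, adjusted p = 0.0094). Hlf, an activator of the same elements, and Per3, both named after their values were seen, fell by 0.78 and 0.66. Nr1d1, the repressor of Arntl also known as Rev-erb alpha, had means of 67.6 and 95.5 RPKM, in the opposite direction to the rest (0.50 ± 0.15, adjusted p = 0.047), and lost its call in 10 of the 12 omissions. The activators Arntl (-0.12), Clock (-0.15) and Npas2 (0.03) were not called. Leaving out single mice gave 5 to 8 members called lower, and the endothelial covariate 4.

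The D-box letters TTATGTAA were looked for in the same 250-base windows on both strands. They stood in 1 of the 5 called clock genes at hand, Per3, against 0.819% of all promoters, and were not found in Cry2, Hlf, Nfil3 and Nr1d1. As before, the count is of genes and the share is of single promoters. Csnk1d and Per2 were not searched. The Per3 window (GRCm38.p6 chr4:151044666-151044915, minus strand) is shown because it holds the letters at 2 places, in capitals, 205 and 158 bases before the start, in a gene that fell together with 2 genes whose proteins bind D-boxes.
Per3: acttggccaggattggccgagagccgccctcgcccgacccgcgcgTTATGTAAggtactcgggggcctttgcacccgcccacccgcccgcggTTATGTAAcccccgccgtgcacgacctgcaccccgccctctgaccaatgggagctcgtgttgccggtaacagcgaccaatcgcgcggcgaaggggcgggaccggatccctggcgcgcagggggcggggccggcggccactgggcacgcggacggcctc

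Some chemokine and NF-kB genes fell. Of 24 chemokines and cytokines, 5 fell and 1 rose (25% called either way, against 7.39% of all genes), with a median of -0.19. The 5 were Cxcl5, Cxcl12, Ccl11, Ccl8 and Il18, at changes from -1.15 to -0.30. Counts of those lower were 3 without O(-Ex) 2, O(-Ex) 5, O(+Ex) 3 or O(+Ex) 5 in turn and 3 with the endothelial covariate. Tnf was the one that rose, at 0.232, 2.43 and 3.37 RPKM with a locked wheel and at 6.51, 4.52, 5.82, 4.75 and 5.79 RPKM with a free one (1.63 ± 0.47, limma adjusted p = 0.04). The groups of Tnf did not overlap, yet its call was lost in 8 of the 12 omissions. Other highly expressed chemokines, Cxcl1 (-0.38, adjusted p = 0.13) and Ccl2 (-0.29, adjusted p = 0.51), did not pass. Of 13 complement genes 2 fell, C3 and C1s1 (15.4% called either way), and the median was 0.06. The count was 0 without O(-Ex) 4 or O(+Ex) 2, 3 or 4, 1 without O(-Ex) 1, 2, 3, 5 or 7 or O(+Ex) 5, 3 without O(-Ex) 6, and 0 with the endothelial covariate. C3 lost its call in 10 of the 12 omissions.

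Il6, a cytokine that activates Stat3 in satellite cells (mm10 chromosome 5, 30013114 to 30019981, plus strand), was at 87.6, 114 and 142 RPKM with a locked wheel and at 103, 63.6, 67.0, 69.8 and 60.3 RPKM with a free one. Free-wheel mouse 1 lay within the locked-wheel range and the other 4 below it, and Il6 fell 1.57-fold (-0.66 ± 0.15, limma adjusted p = 0.013). In the list of Il6 family, Jak and Stat genes, 3 of 27 fell and 0 rose (11.1% called either way, against 7.39% of all genes). These were Il6, Jak2 (-0.36) and Stat3 (-0.29), and the list's median was -0.17. Without O(+Ex) 3, 1 of the 27 was called. Nfkb1, which encodes an NF-kB subunit, was at 69.9, 92.7 and 103 RPKM and at 69.0, 47.5, 55.2, 65.6 and 68.4 RPKM, so that the highest free-wheel mouse lay just below the lowest locked-wheel mouse (-0.57 ± 0.12, adjusted p = 0.0087). Of 29 NF-kB genes 3 fell, Nfkb1, Birc2 and Bcl3, and Traf3 rose (13.8% called either way). Without O(+Ex) 2 the count lower was 1.

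Some early response and glucocorticoid target genes fell. Of 32 immediate early genes, 4 fell and 1 rose (15.6% called either way, against 7.39% of all genes), with a median of -0.18. Fosl2, an AP-1 subunit, was at 45.6, 46.1 and 56.1 RPKM with a locked wheel and at 40.5, 40.0, 35.8, 35.5 and 36.7 RPKM with a free one (-0.34 ± 0.07, limma adjusted p = 0.0052), without overlap. Ier3 and Maff fell by 0.37 and 0.35, and Cyr61 was the one that rose. The count lower was 2 without O(-Ex) 3, O(+Ex) 3 or O(+Ex) 5 in turn. Of 23 glucocorticoid targets 4 fell and 0 rose (17.4% called either way), with a median of -0.17, and Glul, Errfi1 and Mt2 fell without overlap between the groups. Omission of single mice gave 3 to 5, and a fit of all 36 libraries gave 2. The 4 include Glul, glutamine synthetase (-0.36, adjusted p = 0.0032), Errfi1, a feedback inhibitor of EGF receptor (-0.42, adjusted p = 0.0035), and the metallothionein Mt2 (-0.36, adjusted p = 0.014).

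In the TGF-beta and BMP lists few genes moved. Tgfb1, Tgfb2, Tgfb3 and Smad3 were not called, with changes of 0.30, 0.18, 0.09 and -0.13 and adjusted p from 0.27 to 0.63. Of 35 TGF-beta genes 1 rose, Ctgf, and 2 fell (8.57% called either way, near the 7.39% of all genes). Those that fell were the corepressor Tgif1 (156 to 124 RPKM, limma adjusted p = 0.006) and the feedback inhibitor Pmepa1 (217 to 176 RPKM, adjusted p = 0.049). Of 22 BMP and Id genes 1 rose, Bmpr1b, and 3 fell, Chrdl1, Id2 and Id3 (18.2% called either way). The Id genes encode inhibitors of Myod1 and its relatives; Id3 had means of 1712 and 1344 RPKM (-0.35 ± 0.10, adjusted p = 0.033), with no overlap, and Id2 had 147 and 117 RPKM (-0.33 ± 0.10, adjusted p = 0.04). Each of the Id calls was lost in 8 of the 12 omissions, and that of Pmepa1 in 10.

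The translation and energy genes that passed the test changed by small amounts. Of 35 translation factors 5 fell and 0 rose (14.3% called either way, against 7.39% of all genes). Among them were Eif4a1, the initiation helicase (230 to 183 RPKM, limma adjusted p = 0.011), Eif5a (827 to 704 RPKM, adjusted p = 0.013) and Eif1a (223 to 193 RPKM, adjusted p = 0.014). Of 44 ribosome biogenesis factors 4 fell and 0 rose (9.09% called either way, near the 7.39% of all genes), with a median of -0.10. Among the 4 were Ddx21, Tsr1 and Fbl. None of 71 cytosolic ribosomal protein genes was called, at a median of 0.05. Of 68 nuclear genes of oxidative phosphorylation 4 rose and 0 fell (5.88% called either way, below the 7.39% of all genes). Of the 68 changes 58 were positive, and the median was 0.11. Those named were the complex I subunits Ndufa8 (0.35) and Ndufs8 (0.29) and the complex II subunit Sdhd (0.30). The 11 mitochondrially encoded genes had a median of -0.13, with none called. The oxidative phosphorylation count was 0 without O(+Ex) 3 and 2 without O(-Ex) 5 or O(+Ex) 2, and 3 translation factors were called without O(-Ex) 4, 5 or 7 or O(+Ex) 2, 3 or 5 in turn. A fit of all 36 libraries called 1 translation factor, and Eif4a1 and Eif5a lost their calls in it. The ribosome biogenesis count was 0 without O(+Ex) 3, 1 without O(-Ex) 4, O(-Ex) 5 or O(+Ex) 5, and 2 without O(-Ex) 2, O(-Ex) 7 or O(+Ex) 1.

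**Figure D4:**
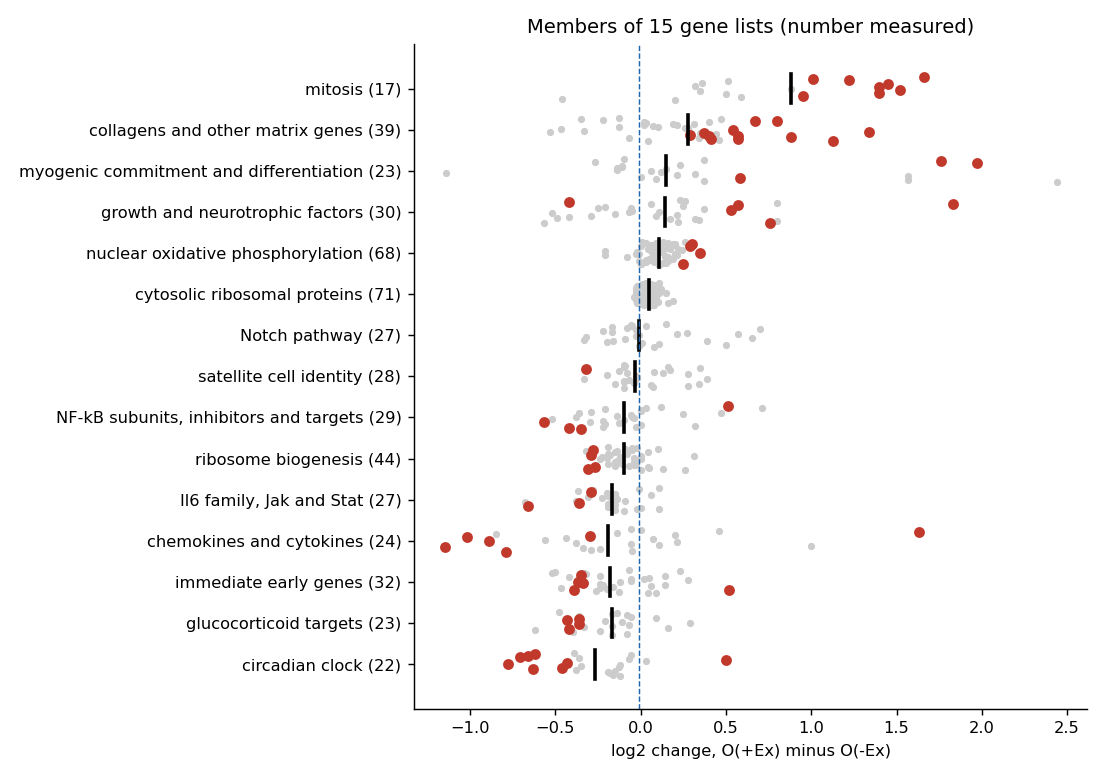
Each row is a gene list with the number of members measured, and each point is a member placed by its log2 change, O(+Ex) minus O(-Ex), on the x axis; red points are called genes, black bars list medians and the dashed line the median of all genes. Of the 15 lists shown, mitosis has the highest median (0.88) and the clock the lowest (-0.27), and the ribosomal proteins lie close to 0.

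The wheel effect in old mice was set beside that in young mice, which rests on other libraries. In young mice 127 genes (1.12%) were called, 46 higher (0.406%) and 81 lower (0.714%). Of the 838 genes called in old mice 52 were also called in young mice, 22 higher and 30 lower, which is 6.21% of the old and 40.9% of the young calls, and 0 were called in opposite directions. The sign was shared by 85.2% of the 838, against 64.7% of all genes, and across the 11337 genes, which are not independent, Pearson's r of both effects was 0.36. The young comparison has fewer mice, so a call in old mice alone shows no difference between ages.

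Of the 17 mitotic genes 3 were called higher in young mice, with a median change of 0.91 there and 0.88 in old mice. Ube2c rose by 1.63 in young mice and by 1.66 in old mice. Vegfa fell by 0.57 in young and 0.42 in old mice, and Chrna1 rose by 0.68 and 0.58. Nfkb1 had the same change in both, -0.57, with a young adjusted p of 0.064. Procr, the protein C receptor, fell by 1.01 in young and by 0.70 in old mice.

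The difference of the wheel effects, old minus young, was called for 1 of the 11337 genes (0.00882%), Nr2f6, an orphan nuclear receptor, and 960 genes had an unadjusted p under 0.05. The Nr2f6 change was 0.11 ± 0.14 (adjusted p = 0.66) in old mice and -1.49 in young mice (limma adjusted p = 7e-05). The next by p among genes that changed in old mice were S100a4 and Slc18a2. S100a4, a calcium-binding protein linked to motility, was at 0.804, 1.75 and 2.81 RPKM in O(-Ex) and at 4.61, 7.41, 5.76, 6.06 and 4.46 RPKM in O(+Ex), and at 0.431, 0.764 and 0.936 RPKM in Y(+Ex). Its changes were 1.67 ± 0.28 in old (adjusted p = 0.0024) and -0.68 in young mice, and their difference, 2.35 ± 0.43, missed the threshold (adjusted p = 0.11). Slc18a2, a vesicular monoamine transporter, fell from 2.30, 2.66 and 3.83 RPKM to 1.04, 1.39, 1.81, 1.54 and 1.28 RPKM in old mice (-1.01 ± 0.14, adjusted p = 6e-04), against a young change of 0.09. The difference of -1.10 ± 0.22 did not pass either (adjusted p = 0.15).

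**Figure D5:**
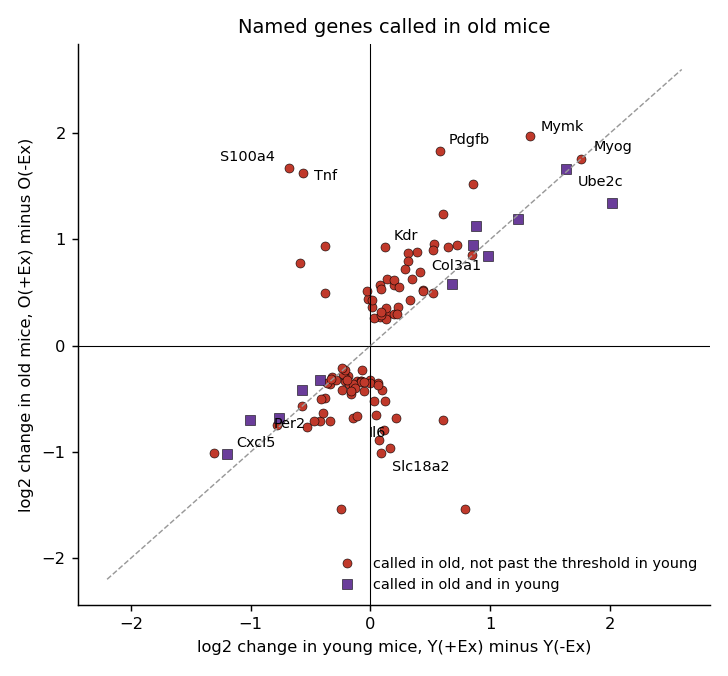
Each point is one of the 114 named genes called in old mice, with its log2 change in young mice on the x axis and in old mice on the y axis; squares passed the test in young mice too and the dashed line marks equal changes. S100a4 and Tnf lie at 1.67 and 1.63 in old mice but below 0 in young mice, and neither difference passed the test.

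The effect of age with a locked wheel, O(-Ex) minus Y(-Ex), shares the O(-Ex) mice with the old wheel effect, so both are given as values only. Age called 4342 genes (38.3%), 2321 higher in old mice (20.5%) and 2021 lower (17.8%). Col3a1 had an age change of -1.08 and a wheel change of 0.88, and its means were 164 RPKM in O(-Ex), 300 RPKM in O(+Ex) and 343 RPKM in Y(-Ex). Sparc had -0.57 and 0.80, with means of 399, 698 and 599 RPKM, so that the free-wheel old mice exceeded the young mice in mean. Il6 had 1.12 and -0.66, with means of 114, 72.6 and 52.3 RPKM, and Nfkb1 1.03 and -0.57, with means of 90.7, 61.1 and 44.6 RPKM. Ube2c had -1.30 and 1.66.

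Other genes moved the same way with both. Ctgf had an age change of 1.02 beside its wheel change of 0.87, and means of 207 RPKM in Y(-Ex), 418 RPKM in O(-Ex) and 759 RPKM in O(+Ex). Pgf had 1.13 and 0.95. Cldn5 had 0.68 and 0.94, and Islr 0.70 and 0.72. For Pax7, which was lower with age (-0.59, limma adjusted p = 0.00016), the wheel change was -0.13.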

How the data were processed

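The deposited table gives RPKM per gene and library, made by the authors. The submitters' processing notes name Trim Galore, STAR, featureCounts, Subread and the mm10 build, with no versions and no order. The table holds no zero, and read depth per library is not known. Its 36 libraries span 29 of 35 possible directions of variation, so that 6 were removed by a step not given in the sources used here. Each locked-wheel group was joined to the WT group of its age outside the wheel libraries, and 6 group means were taken out. The libraries then spanned 24 of 30 possible directions, so the 6 lie within these groups. Such a loss can make the spread between mice, and with it the SE and adjusted p, too small, which was not tested. The 21 libraries fitted span all 20 and the 12 old ones all 11, which does not settle this.

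From these values log2 RPKM was taken and fitted with limma 3.58.1 (R 4.3.3; lmFit, then eBayes with trend and robust settings) over the 21 wheel libraries, with 1 mean per group and no covariate. Calls were made at a Benjamini-Hochberg adjusted p under 0.05, adjusted across the 11337 genes. The fit was tested on simulated data with 200 genes changed and normal noise drawn independently for each gene and library. It called 53% of the changes of 0.5 and 92% of the changes of 1 on the log2 scale, and 2.68% of the calls were false. The simulation did not include the lost directions of variation, so it cannot show their effect on the SE. Gene positions are from GENCODE M21 (mm10), in which 11335 of the genes were found, and promoter sequences from RefSeq (GRCm38.p6).

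The gene lists (37 pathway and 9 marker lists), the members and the comparisons were chosen with earlier results of these data known. Named by rule were the 15 largest increases and the 15 largest decreases among called genes averaging 5 RPKM or more in old mice (clone, Rik and Gm names left out), up to 3 called genes per list and direction, fixed cell cycle, myogenic and TGF-beta genes, and the 5 genes with the lowest p for the difference between ages; other list members were named after their values were seen. Alternatives covered scaling, pseudocounts of 0.5 and 1, filters at 1 and 5 RPKM, the libraries fitted, the variance model, library weights, a replicate block and omission of each mouse; marker covariates were added after seeing the data.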

Additional observations from a re-analysis of the deposited data

Results flagged for a closer look

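Of 254 groups of 5 or 7 mice looked at for the named genes, 14 held a mouse set apart from the others by Dixon's criterion at 95%, which chance gives in about 1 of 20 groups. In the locked-wheel group, O(-Ex) 2 was low for the linker histone gene Hist1h1c at 7.72 RPKM (next 11.8), O(-Ex) 6 was high for Nnmt at 56.3 RPKM (next 43.1), and O(-Ex) 3 was high for Fosl2 at 56.1 RPKM (next 49.3). O(-Ex) 7 was low for the BMP antagonist gene Chrdl1 at 0.773 RPKM (next 1.46) and high for Sel1l at 16.9 RPKM (next 14).

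In the free-wheel group, O(+Ex) 1 was high for Il6 at 103 RPKM (next 69.8), for Chrdl1 at 1.25 RPKM (next 0.787) and for Gpx1 at 83.6 RPKM (next 66.6). O(+Ex) 2 was high for Spock3 at 6.82 RPKM (next 5.52) and low for Myh11 at 8.52 RPKM (next 12.5). O(+Ex) 3 was low for Per2 at 4.20 RPKM (next 6.42) and for Adamts1 at 98.1 RPKM (next 120), and high for Traf3 at 5.62 RPKM (next 4.55). O(+Ex) 5 was high for Ccnb2 at 3.49 RPKM (next 2.56). In Il6, that free-wheel mouse was the one of the 5 that lay within the locked-wheel range.

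The wheel effect differed between old and young mice in the limma test of the difference itself for Nr2f6, by 1.60 on the log2 scale.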

How the results depend on the processing

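The 838 genes called in old mice, 464 higher and 374 lower, kept their direction in each alternative that tested them. Leaving out 1 mouse gave 351 to 923 called genes, 202 to 533 higher and 149 to 390 lower, and 338 of the 838 remained called without O(+Ex) 3. With the endothelial marker level as a covariate, chosen after seeing the data, the counts were 398, 228 and 170; with that of the haematopoietic markers 759 were called. The other scalings, pseudocounts, filters, variance models and sets of libraries gave 631 to 900 genes, and library weights 943; the cause of the spread was not tested, other than that the filter at 5 RPKM tests fewer genes. Of the 114 called genes named by rule, 53 kept the call in all 12 omissions and 61 lost it in at least 1. With the endothelial covariate the counts of members called lower were 4 for the clock, 3 for chemokines, 2 for immediate early genes, 2 for glycolysis and hypoxia, 1 for NF-kB, 1 for the Il6 family and 0 for BMP and Id genes, and 0 oxidative phosphorylation genes were called higher. The BMP and Id count lower was 0 to 1 without 9 of the 12 mice, O(-Ex) 3, 6 and 7 being the others.

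The count for the difference between ages, 1, became 2 with a pseudocount of 1 RPKM, 0 at a mean of at least 5 RPKM and 5 with library weights, and 1 to 5 when single mice were left out, with 2 without O(-Ex) 7 or Y(-Ex) 4 and 5 without Y(+Ex) 3.

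Replicate numbers are shared between the groups but name separate mice. Deviations of same-numbered old mice correlated at -0.15 to 0.30 and those of other pairs at -0.42 to 0.24. The correlation was over 0.1 in 4 of 5 pairs, and 3 of 5 free-wheel mice correlated best with their own number, which is a hint from the data and not from the design. As the labels name no shared litter, batch or day and 1 pair was at -0.15, the numbers were not taken as pairs. The fit with a replicate block called 629 genes, 366 higher and 263 lower, and 1 gene for the difference; 528 of the 838 remained called. Genes of the report that lost the call with the block include Cdk4, Pmepa1, Bmpr1b, Traf3, Maff, Nr1d1, Ldhb, Fbl, C3 and Abcc9.

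Depth is unknown, so low levels, such as those of the mitotic genes, carry an error that cannot be given. The spread is that between 5 and 7 mice, and wheel use per mouse was not analysed here.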

Other observations

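The gene families here were put together after their values were seen and are therefore given without a test; a few members, such as Ctsd and Ctsa, also stand in the lists of the comparison. Of 40 lysosomal hydrolase genes 13 were called higher by limma and 0 lower (4.09% and 3.30% of all genes), with a median log2 change of 0.29 and 34 positive changes. The list of 39 autophagy and lysosome genes, one of the pathway lists, had 2 called higher (5.13%) and 0 lower, with a median of 0.05. Those of the 40 called higher include Ctsd, a lysosomal aspartic protease (62.4 to 79.8 RPKM), Ctsa (23.2 to 28.6 RPKM), Grn, the progranulin gene (0.46), Tpp1 (0.38), Ppt1 (0.41) and Lipa, the lysosomal acid lipase (0.56). In young mice 0 of the 40 were called, with a median of 0.18. The products of the 5 Lamtor genes anchor mTORC1 regulators at the lysosome. Of the 5 genes, 3 were called higher and 0 lower (60% called either way, against 7.39% of all genes). These were Lamtor1, Lamtor4 and Lamtor5, at 0.53, 0.46 and 0.35. Of 12 oligosaccharyltransferase genes, which attach glycans to secreted proteins, 3 were called higher and 0 lower (25% called either way). These were Rpn2, Ddost and Ostc, at 0.50, 0.28 and 0.32. Of 8 genes of Tmed cargo receptors, 2 were called higher and 1 lower (37.5% called either way).

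Some splicing factor genes went the other way. Of 10 Srsf genes 4 were called lower and 0 higher (40% called either way, against 7.39% of all genes). These were Srsf5, Srsf7, Srsf1 and Srsf10. The family median was -0.19, and it was -0.21 in young mice, in which 2 were called lower. Of 20 Hnrnp genes 3 were called lower and 0 higher (15% called either way), and 17 were not called. Among the 3 was Hnrnpa2b1, with means of 340 RPKM in O(-Ex) and 262 RPKM in O(+Ex) and of 301 and 257 RPKM in young mice.

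Single genes picked after their values were seen add to these. Ptgs2, the inducible prostaglandin synthase, had means of 5.06 RPKM in O(-Ex) and 1.40 RPKM in O(+Ex) (limma adjusted p = 0.013), and 2.25 and 3.68 RPKM in the young locked-wheel and free-wheel mice. Gal, the neuropeptide galanin, had means of 3326 and 2308 RPKM in old mice (adjusted p = 0.04) and 2835 and 1539 RPKM in young mice, and Odc1, the first enzyme of polyamine synthesis, 426 and 287 RPKM (adjusted p = 0.0073) and 267 and 189 RPKM. Dag1, the dystroglycan gene, which links the cell surface to laminin, had 152 and 201 RPKM (adjusted p = 0.0055) and 199 and 250 RPKM. Esm1, a gene of endothelial tip cells, had 1.31 and 3.12 RPKM in old mice (adjusted p = 0.029) and 1.37 and 4.16 RPKM in young mice.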
